A study of Mus musculus with 31 samples.

Results

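The comparison described here is an interaction of region and stage. It asks for each gene whether the difference between the olfactory nerve layer (ONL), the sheet of axons and glia on the surface of the olfactory bulb, and the peripheral olfactory nerve in the connective tissue of the nasal mucosa was the same at E16.5 as at E13.5. It takes in 20 of the 31 RNA-seq libraries of the series, and 18002 of the 47729 genes listed passed an expression filter and were tested. At E16.5 the groups were 4 libraries of "outer ONL", cut furthest from the bulb, and 4 of olfactory nerve. At E13.5 they were 5 libraries of ONL, which was not divided into outer and inner pieces, and 7 of olfactory nerve. In the ONL, stage and depth of cut therefore cannot be told apart. The study found that its inner and outer cuts at E16.5 did not separate the inner from the outer glia of the ONL. All pieces were laser-microdissected from cryosections of mouse embryos carrying the *Sox10:H2BVenus* BAC transgene, in which Sox10 regulatory sequences mark the nuclei of glia with a fluorescent protein. The reporter guided the cutting but did not sort the cells, so each piece also held axons and whatever tissue lay beside the glia. The embryos of all 4 groups carried the same transgene and no other treatment was compared.

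The E13.5 libraries were grouped as in the group averages that the study published, and these disagree with the deposited labels. The published average for E13.5 ONL equals the mean of the libraries labelled E11.5_ON1 to E11.5_ON4 and E13.5_ON1. That for E13.5 olfactory nerve equals the mean of the libraries labelled E13.5_ON2 to E13.5_ON7 and E13.5_ONL1. Of the 12 E13.5 libraries used here, 6 therefore carry another group's label. The libraries labelled E13.5_ONL2 to E13.5_ONL5 match the published average for E11.5 olfactory nerve. The alternative grouping by label, given below, uses them as E13.5 ONL. Genes for which the study located transcripts in the ensheathing glia of the ONL differed sharply between the groupings. *Npy*, a neuropeptide gene, lay between 171 and 455 CPM (read counts relative to the library total) in the 5 libraries averaged as ONL, and between 0.0606 and 2.51 CPM in the 5 libraries labelled E13.5 ONL. *Prss56*, a serine protease gene, lay between 33.9 and 91.7 CPM in the former and between 0 and 0.327 CPM in the latter. With libraries grouped by label, 22 of the 76 called genes named in the text or the closing section kept their call and direction, 31 kept their direction but not their call, and 23 changed direction. The values of the last 2 sets are given in the closing section, and below for the genes the results turn on.

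The axon bundles of olfactory neurons are wrapped by a glial type of their own, the olfactory ensheathing cell, which derives from the neural crest. These glia enter the nerve with the first axons, and those that reach the brain surface build the ONL, where axons defasciculate and sort before they enter glomeruli. Their development depends on Sox10. Wnt modulators, Notch signalling and guidance molecules such as semaphorins, netrins and ephrins act in glial differentiation and in the sorting of axons in this tissue.

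The log2 interaction is the log2 difference of outer ONL minus nerve at E16.5 less that of ONL minus nerve at E13.5. A value above 0 means that the ONL level, set against the nerve, was higher at E16.5 than at E13.5 (shifted to ONL), and a value below 0 that it was lower (shifted to nerve). Levels below are CPM scaled with TMM factors, and values in libraries are given in the order of their numbers. The edgeR quasi-likelihood test was run over the 20 libraries, and a gene was called at a Benjamini-Hochberg adjusted p under 0.05. Of the 18002 genes, 2634 were called (14.6%), with 1199 shifted to ONL (6.66%) and 1435 shifted to nerve (7.97%). The count shifted to ONL was 791 without the library labelled E16.5_oONL1. The study took the E13.5 pieces of each region from 4 embryos, fewer than the number of pieces, and the labels do not tie pieces to embryos. Some E13.5 pieces therefore share an embryo, and p-values over pieces are too small on that account. At E16.5, where the 4 pieces of a region came from 4 embryos, same-numbered libraries of the tissues varied together, and with a block for this number 2876 genes were called. Depth ranged from 3512627 counts in the library labelled E11.5_ON1 to 27398916 at E13.5, and from 14808477 to 16628064 at E16.5.

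By the signs of the fitted differences, most called genes changed side. These signs were not tested, and some rest on differences near 0, such as -0.13 for *Mvd* at E13.5. The share that changed side among all genes tested was not counted. Among the 1199 shifted to ONL, 742 had a fitted level above that of the ONL in the nerve at E13.5 and below it at E16.5. A further 230 were higher in the ONL at both stages with a wider gap at E16.5, and 227 were higher in the nerve at both stages with a narrower gap. Among the 1435 shifted to nerve, 866 went from higher in the ONL to higher in the nerve, 397 stayed higher in the ONL with a narrower gap, and 172 stayed higher in the nerve with a wider gap. The fitted change from E13.5 to E16.5 was larger in the ONL than in the nerve for 2204 of the 2634 called genes (83.7%), and for 62.9% of all genes tested. With libraries grouped by label, 1892 genes were called, of which 653 were among the 2634. With outer and inner ONL averaged at E16.5, 2353 were called, of which 1767 were among the 2634.

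**Figure D1:**
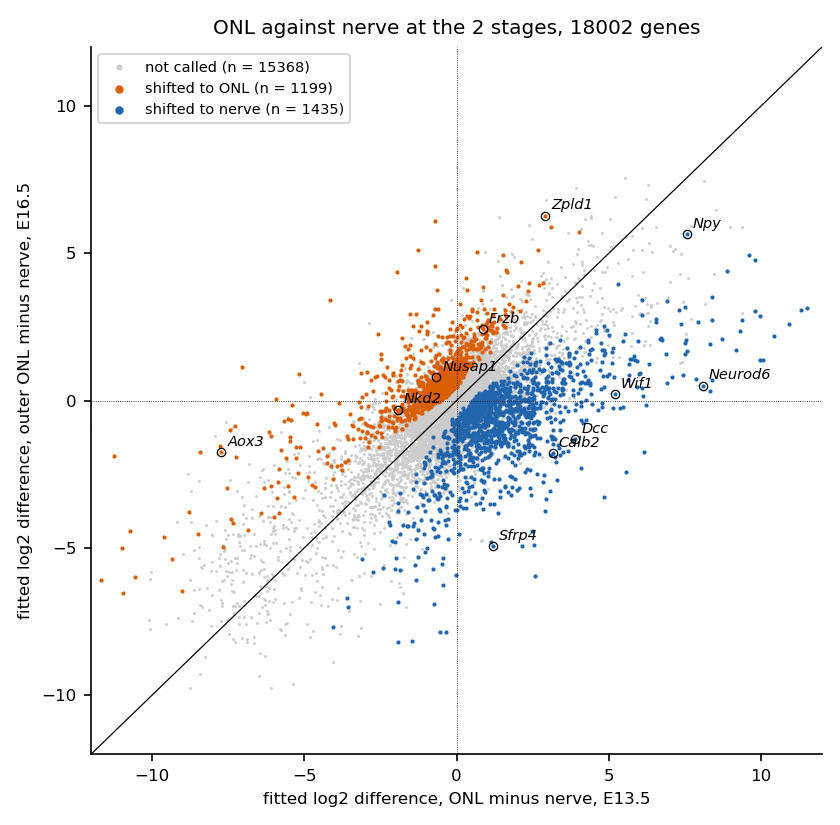
Fitted log2 difference of ONL minus nerve at E13.5 (horizontal axis) against that at E16.5 (vertical axis) for 18002 genes. Orange points are the 1199 called genes shifted to ONL, blue points the 1435 shifted to nerve and grey points the rest, the diagonal marks equal differences, and *Sfrp4* lies among the genes higher in the ONL at E13.5 and in the nerve at E16.5.

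Among the 9 genes that the study located in ONL ensheathing cells, 2 were shifted to ONL, 3 to nerve and 4 were not called, with a median log2 interaction of -0.33 against 0.05 for all genes tested. Of all genes tested, 6.66% were shifted to ONL and 7.97% to nerve. Without the 2 genes that were at the floor in a group, *Prss56* and *Ptgds*, the median of the other 7 was 0.63. The study chose these genes partly on the E16.5 libraries, so their E16.5 difference is no independent evidence. Both genes shifted to ONL encode Wnt antagonists. *Nkd2*, whose product acts inside the cell on Dishevelled, was at 37.5, 29.7, 31.7, 44.9 and 34.1 CPM in E13.5 ONL and at 126 to 149 CPM (median 135) in E13.5 nerve. At E16.5 it was at 311, 208, 212 and 251 CPM in outer ONL and at 299, 268, 336 and 312 CPM in nerve. Every ONL library lay below every nerve library at E13.5, and the groups overlapped at E16.5 (log2 interaction 1.63 ± 0.19, SE, adjusted p = 9.09e-06, edgeR). By label its value was 0.05 (adjusted p = 0.966, edgeR). The study saw no *Nkd2* transcripts in ensheathing cells at the earlier stage, nor in mucosal ones at E16.5. It proposes mesenchyme beside the olfactory epithelium as the likely source of the E16.5 nerve level. *Frzb*, a secreted Frizzled-related protein, was at 158, 85.0, 141, 180 and 148 CPM in E13.5 ONL against 41.4 to 93.4 CPM (median 86.3) in nerve. In outer ONL it was at 665, 376, 499 and 426 CPM and in E16.5 nerve at 75.0, 122, 95.9 and 75.2 CPM. The groups overlapped at E13.5 and stood well apart at E16.5 (log2 interaction 1.56 ± 0.32, adjusted p = 0.00195, edgeR).

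The 3 genes of this list shifted to nerve had a narrower gap at E16.5, with different levels behind it. *Wif1* (chr10:121033960-121100650 in GRCm38), another secreted Wnt inhibitor, was at 57.9, 53.0, 74.3, 68.8 and 69.3 CPM in E13.5 ONL and at 0.414 to 3.74 CPM (median 1.72) in E13.5 nerve. In outer ONL it was at 65.1, 42.6, 54.8 and 40.7 CPM, and in E16.5 nerve at 13.1, 70.1, 39 and 52.6 CPM. The ONL levels of the stages overlapped, whereas every nerve library at E16.5 lay above every one at E13.5 (log2 interaction -4.95 ± 0.58, adjusted p = 1.07e-05, edgeR). The study saw no *Wif1* transcripts in mucosal ensheathing cells. For the E16.5 nerve level it proposes mesenchyme beside the olfactory epithelium as the likely source. *Npy* was higher at E16.5 in both tissues. It was at 170, 321, 468, 335 and 406 CPM in E13.5 ONL and 2980, 1880, 1360 and 1430 CPM in outer ONL. In nerve it was at 0.378 to 3.22 CPM (median 1.78) at E13.5 and at 59.0, 26.9, 32.8 and 34.5 CPM at E16.5. The proportional difference between the stages was the larger in the nerve (log2 interaction -1.90 ± 0.49, adjusted p = 0.00989, edgeR), although every ONL library stayed above every nerve library. The study saw no obvious *Npy* expression in mucosal ensheathing cells at E16.5, and the source of the *Npy* counts in nerve was not tested.

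*Prss56* was at 33.8, 70.8, 66.6, 77.3 and 92.0 CPM in E13.5 ONL, 593, 249, 457 and 386 CPM in outer ONL and 31, 3.35, 14.7 and 13.1 CPM in E16.5 nerve. In E13.5 nerve no library held more than 3 of its counts, and a fitted value against such a group depends on the method and is no bound (log2 interaction -5.05 ± 0.85, adjusted p = 0.000335, edgeR). The study detected no *Prss56* transcripts in mucosal ensheathing cells at E16.5, and the source of the *Prss56* counts in nerve was not tested. *Vtn*, the gene for vitronectin, and *Ptgds*, for prostaglandin D synthase, were in every ONL library above every nerve library at both stages and were not called, with log2 interactions of -0.89 ± 1.14 and -0.33 ± 0.76. *Ptgds* too had no E13.5 nerve library with more than 3 counts, so its fitted value is no bound. The sign of both turned without the library labelled E16.5_ON2, which held 142 CPM of *Vtn* against 1.95 to 26.7 CPM in the other E16.5 nerve libraries. *Lypd6* and *Hes5* were not called either. With libraries grouped by label, the signs of *Wif1*, *Prss56* and *Npy* reversed (log2 interactions 8.15, 11.11 and 11.25), 7 genes of the list were called shifted to ONL and 0 shifted to nerve. The library labelled E13.5_ON1, with 406 CPM of *Npy*, is a nerve library under that grouping.

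**Figure D2:**
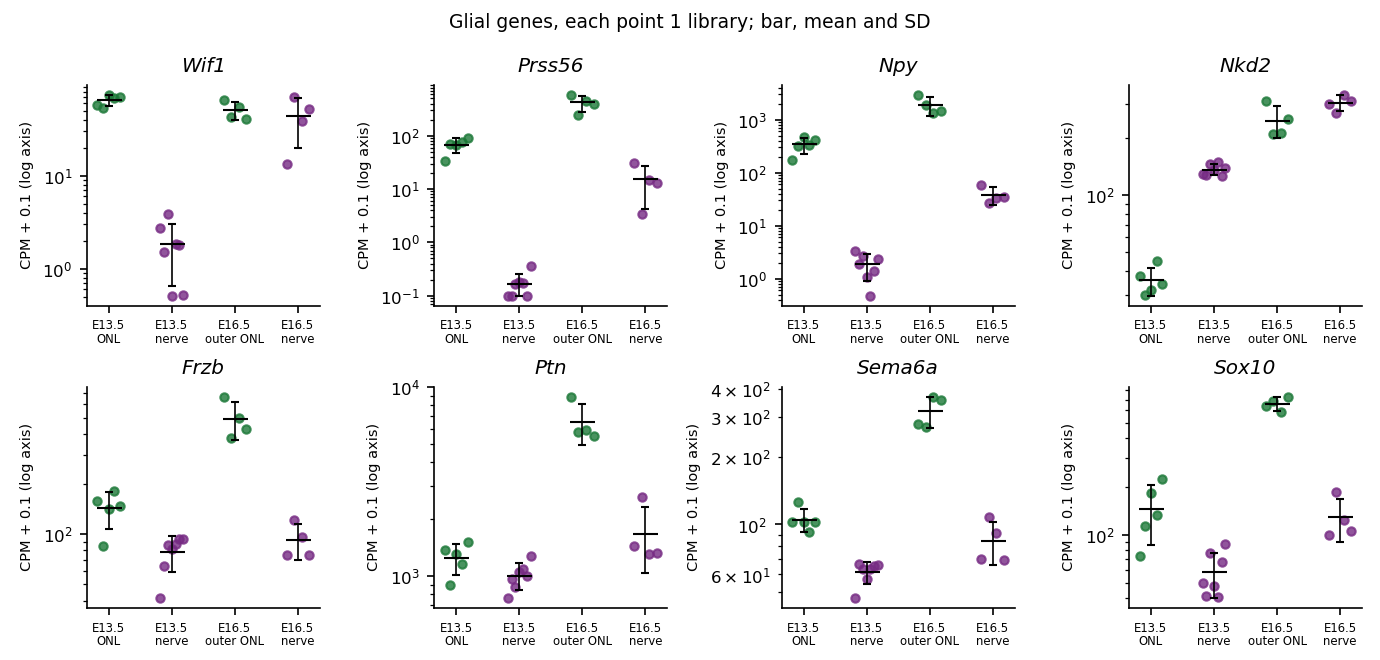
CPM + 0.1 on a log axis in each library for 8 glial genes, in E13.5 ONL (n = 5), E13.5 nerve (n = 7), E16.5 outer ONL (n = 4) and E16.5 nerve (n = 4), with the mean and SD. The nerve level of *Wif1* lay between 0.414 and 3.74 CPM at E13.5 and between 13.1 and 70.1 CPM at E16.5, while *Frzb* and *Ptn* overlapped between the tissues at E13.5 and not at E16.5.

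Of 9 genes located in ensheathing cells of both regions, 2 were shifted to ONL, 1 to nerve and 6 were not called (median log2 interaction 0.41). The shares of all genes tested were 6.66% to ONL and 7.97% to nerve. With the replicate block at E16.5 *Adgrg1*, an adhesion receptor gene, was called too (adjusted p = 0.0298 against 0.0579, edgeR), which made 3 shifted to ONL, and by label 5 were. *Ptn*, a heparin-binding growth factor, was at 1370, 896, 1300, 1160 and 1520 CPM in E13.5 ONL and at 766 to 1270 CPM (median 996) in nerve, with overlap. In outer ONL it was at 8870, 5740, 5900 and 5500 CPM and in E16.5 nerve at 1450, 2630, 1300 and 1320 CPM, with no overlap (log2 interaction 1.64 ± 0.28, adjusted p = 0.000448, edgeR). Strong *Ptn* expression was also seen by the study in mesenchyme beside the ONL at E16.5, but not at the earlier stage. Mesenchyme around olfactory nerve fascicles expressed it too, and the part of mesenchyme in the *Ptn* values was not tested. *Sema6a*, a transmembrane semaphorin, was higher in every ONL library than in every nerve library at both stages, by a wider margin at E16.5 (log2 interaction 1.13 ± 0.20, adjusted p = 0.000575, edgeR). *Dpysl3*, which encodes a cytoskeletal protein of growing axons also known as Crmp4, went the other way. Its levels of 1310, 1610, 1310, 1180 and 1190 CPM in E13.5 ONL lay above all those in nerve (643 to 994 CPM). Its levels of 413, 610, 402 and 738 CPM in outer ONL lay below all those in E16.5 nerve (log2 interaction -1.42 ± 0.23, adjusted p = 0.00022, edgeR), and by label it was not called (-0.43, adjusted p = 0.319, edgeR). The study also saw strong *Dpysl3* expression in the olfactory bulb, the olfactory epithelium and Sox10-negative cells on the nerve, presumably neurons. The part of these cells in the values was not tested.

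*Sox10* itself was at 73.2, 113, 183, 133 and 224 CPM in E13.5 ONL and at 40.7 to 87.2 CPM (median 49.9) in nerve. At E16.5 it was at 638, 688, 582 and 729 CPM in outer ONL and at 99.2, 184, 124 and 106 CPM in nerve. Its log2 interaction of 1.05 ± 0.37 did not pass the test (adjusted p = 0.0601, edgeR), which does not show that the difference stayed the same. In these bulk pieces, fewer glial cells and less RNA per cell cannot be told apart. Of the 7 pan-glial genes only *Zbtb20*, a zinc finger factor, was called (log2 interaction 1.00, adjusted p = 0.0116, edgeR), all 7 values were above 0, and *Zbtb20* was not called without outer ONL replicates 2 and 4 (adjusted p = 0.0982, edgeR). By label 5 of the 7 were shifted to ONL. With libraries grouped by the published averages, 6.66% of all genes were shifted to ONL and 7.97% to nerve. None of the 5 genes shared by mucosal ensheathing and Schwann cells was called, nor were the 2 Schwann cell genes *Mbp* and *Prx*. This absence of calls does not show that they kept the same difference, since the SE of *Sostdc1*, for example, was 0.97.

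Of 21 genes of glial and astrocyte-like differentiation, 5 were shifted to ONL and 3 to nerve, with a median of 0.56, where 6.66% and 7.97% of all genes were. By label the counts were 8 and 1. *Aldoc*, for an aldolase of astrocytes, was at 12.5, 64.4, 10.1, 6.56 and 14.6 CPM in E13.5 ONL, at 8.55 to 24.4 CPM in nerve, at 489, 333, 291 and 375 CPM in outer ONL and at 32.7, 48.3, 34.5 and 55.8 CPM in E16.5 nerve. One E13.5 ONL library stood above the other 4, and the groups overlapped at E13.5 only (log2 interaction 2.61 ± 0.62, adjusted p = 0.00601, edgeR). *Glul*, for glutamine synthetase, and *Sparcl1*, for an extracellular matrix glycoprotein, had log2 interactions of 1.34 ± 0.27 and 1.39 ± 0.27. *Cryab*, for a small heat shock protein, was higher in nerve at both stages with a narrower gap at E16.5 (1.68 ± 0.40), and its sign reversed with libraries grouped by label (-0.61). *Gfap*, *Clu* and *Slc1a2* were shifted to nerve. *Gfap*, the glial intermediate filament gene, was at most 1.48 CPM in any E13.5 library, at 1.28 to 2.61 CPM in outer ONL and at 26.2, 11.3, 18.2 and 10.3 CPM in E16.5 nerve, where no library overlapped outer ONL (log2 interaction -3.15 ± 0.63, adjusted p = 0.00144, edgeR). *Clu*, for clusterin, reached 58.1 to 201 CPM in E16.5 nerve against 4.63 to 17.6 CPM in outer ONL (-2.55 ± 0.50). Of 12 tested myelin genes 3 were shifted to ONL, among them *Pmp22* (0.93 ± 0.23) and *Ugt8a* (1.45 ± 0.41), and 0 to nerve. The count of 3 was 1 without the library labelled E16.5_ON3, without E16.5_oONL1, without E16.5_oONL3, or with outer and inner ONL averaged at E16.5.

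In the Wnt list 2 of 21 tested genes were shifted to ONL and 2 to nerve, close to the 6.66% and 7.97% of all genes. The count to nerve was 4 without the library labelled E11.5_ON1, and by label the counts were 6 and 0. Here *Nkd2*, *Frzb* and *Wif1* described above were 3 of these 4. The other was *Sfrp4* (chr13:19623104-19632994), which encodes a secreted Frizzled-related protein. It was at 6.81, 5.90, 5.06, 4.34 and 5.09 CPM in E13.5 ONL and at 1.06 to 3.73 CPM (median 1.93) in nerve. In outer ONL it was at 1.80, 5.83, 5.57 and 10.1 CPM, and in E16.5 nerve at 298, 80.3, 178 and 158 CPM. The ONL stayed low at both stages and the order of the tissues turned (log2 interaction -6.10 ± 0.55, adjusted p = 9.65e-07, edgeR), and by label the value was -3.22 (adjusted p = 0.0782, edgeR).

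In the Notch list of 17 genes, 3 were shifted to ONL and 1 to nerve, against 6.66% and 7.97% of all genes. By label 5 and 1 were, and without the library labelled E13.5_ON4 the count to nerve was 2. The receptor gene *Notch1* was at 23.8, 36.0, 22.9, 28.5 and 32.3 CPM in E13.5 ONL, all below the 40.9 to 69.8 CPM of nerve. It was at 74.7, 79.4, 78.3 and 83.2 CPM in outer ONL, all above the 49.8 to 66.2 CPM of nerve (log2 interaction 1.5 ± 0.22, adjusted p = 9.67e-05, edgeR). *Notch2* overlapped between tissues at E13.5 and was higher in all outer ONL libraries at E16.5 (1.05 ± 0.23). The effector *Hey1* was higher in nerve at both stages, with a narrower gap at E16.5 (0.99 ± 0.25). By label it was called the other way (-1.62, adjusted p = 0.0317, edgeR). The ligand *Dll1* was at 12.6 to 17.9 CPM in E13.5 ONL against 1.69 to 5.42 CPM in nerve, and at 0.651 to 1.86 CPM in outer ONL against 2.40 to 5.30 CPM in nerve (-3.49 ± 0.45, adjusted p = 2.88e-05, edgeR), and at -0.95 by label was not called (adjusted p = 0.469, edgeR). The Notch effectors *Hey2*, *Heyl* and *Hes1* were not called.

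Axon guidance genes were called in both directions, with more shifted to nerve: 17 of 52 to nerve and 6 to ONL, with a median of -0.56, where 7.97% and 6.66% of all genes were. Forebrain neuron markers moved the same way, with a sum of 1180 to 1580 CPM in E13.5 ONL and at most 232 CPM in the other libraries, and their part in these counts was not tested. Among receptors, *Dcc*, the netrin receptor, was at 61.6, 62.1, 56.3, 38.1 and 27.3 CPM in E13.5 ONL and at 1.49 to 4.38 CPM in nerve. It was at 1.41, 3.65, 3.47 and 2.81 CPM in outer ONL and at 4.28, 4.49, 8.42 and 11.1 CPM in E16.5 nerve. Its order turned without overlap at either stage (log2 interaction -5.20 ± 0.47, adjusted p = 9.65e-07, edgeR), and it was shifted to nerve by label too (-3.44, adjusted p = 0.0335, edgeR). The ephrin receptor *Epha3* (-5.36 ± 0.65) and the semaphorin co-receptors *Plxna2* (-1.35 ± 0.22) and *Plxna3* (-1.73 ± 0.29) had levels in every E13.5 ONL library above every nerve library, and overlap at E16.5. By label *Epha3* was at -0.52 (adjusted p = 0.806, edgeR). The study lists *Epha3* among genes not expressed by ensheathing or Schwann cells. Also shifted to nerve were the receptor genes *Robo2*, *Robo3*, *Nrp1*, *Nrp2*, *Plxna4*, *Epha5* and *Unc5d* and the ligand genes *Slit1*, *Sema3e*, *Sema4a*, *Sema6c*, *Efnb2* and *Ntng1*, between -4.33 and -1.28. Those shifted to ONL were *Ntn1*, *Ephb1*, *Ephb3*, *Sema6a*, *Efna4* and *Efna5*. *Ephb1* was at 43.6, 28.4, 33.8 and 39.5 CPM in outer ONL and at 3.84 to 6.51 CPM in E16.5 nerve, while its E13.5 libraries overlapped at 5.14 to 18.1 CPM (2.52 ± 0.41, adjusted p = 0.000277, edgeR). *Ntn1*, the netrin-1 gene, stayed below 10 CPM in all 20 libraries (3.44 ± 0.55). By label *Plxna2* and *Ephb3* changed sign (0.47 and -0.43), and the list had 10 genes shifted to nerve and 5 to ONL.

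**Figure D3:**
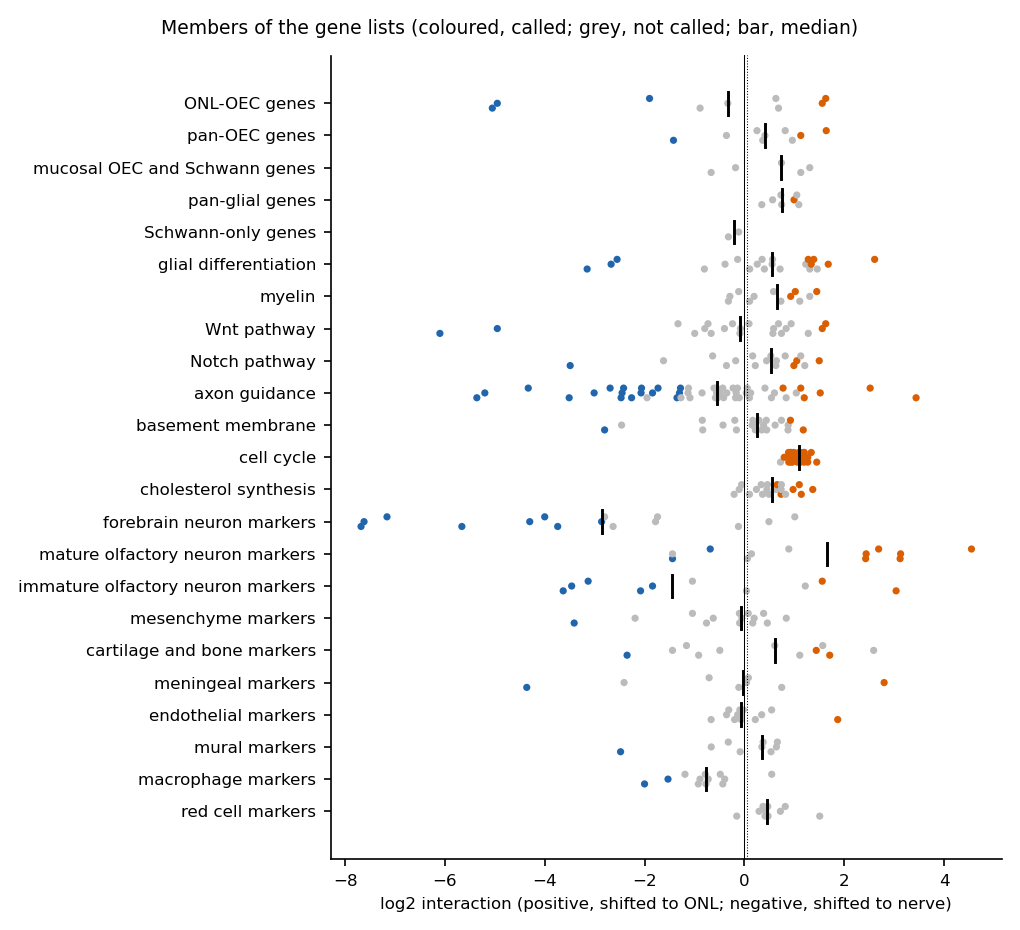
Log2 interaction of each tested member of the 23 gene lists. Orange points are called genes shifted to ONL, blue points called genes shifted to nerve and grey points genes not called, with each list's median as a bar and that of all genes as a dotted line, and the cell cycle list lies wholly to the right of 0 with a median of 1.09.

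Cell cycle genes moved together. Of 28 genes of DNA replication and mitosis 27 were shifted to ONL, 0 to nerve, and all 28 had a log2 interaction above 0 (0.72 to 1.45, median 1.09), where 6.66% of all genes tested were shifted to ONL. In all 27 the fitted level was higher in nerve at E13.5 and in outer ONL at E16.5. Their summed level was 3390 to 4870 CPM in E13.5 ONL, 5000 to 6590 CPM in E13.5 nerve, 5610 to 8150 CPM in outer ONL and 3770 to 4750 CPM in E16.5 nerve. The tissues did not overlap at either stage and their order turned. *Nusap1*, a spindle protein gene, was at 185, 135, 142, 173 and 146 CPM in E13.5 ONL and 225 to 270 CPM in nerve, then at 399, 273, 285 and 309 CPM in outer ONL and 193, 188, 181 and 172 CPM in nerve (log2 interaction 1.45 ± 0.17, adjusted p = 1.18e-05, edgeR). *Cdc20*, which activates the anaphase-promoting complex, had a log2 interaction of 1.27 ± 0.21, the proliferation marker *Mki67* of 0.94 ± 0.23, and *Mcm3*, a subunit of the replicative helicase, of 1.20 ± 0.25. *Mki67* and *Mcm3* were picked as examples after their values were seen. The count of 27 was 9 with libraries grouped by label, and lay between 22 (without the library labelled E16.5_ON2) and 27 as each library was left out. These genes do not say which cells divided, and the summed forebrain neuron markers, given below, were higher in the E13.5 ONL than in the other groups. The part of such cells in the cell cycle values was not tested.

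Cell cycle promoters often hold short elements known as CHR and CCAAT boxes. The 4 printed here are examples chosen from the 5 of 24 stretches that held both. The stretches are the 140 bases upstream of the RefSeq transcription start (GRCm38.p6), 5′ to 3′ on the gene's strand. Capitals mark TTTGAA, the core of the cell cycle gene homology region, and CCAAT, the NF-Y box, each on either strand.
Top2a: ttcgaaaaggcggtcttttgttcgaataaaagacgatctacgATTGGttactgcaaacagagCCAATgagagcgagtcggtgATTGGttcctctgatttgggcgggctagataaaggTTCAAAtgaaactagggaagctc
Cdk1: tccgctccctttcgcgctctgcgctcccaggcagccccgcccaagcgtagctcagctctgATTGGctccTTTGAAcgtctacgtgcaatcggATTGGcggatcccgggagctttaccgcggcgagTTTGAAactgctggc
Ube2c: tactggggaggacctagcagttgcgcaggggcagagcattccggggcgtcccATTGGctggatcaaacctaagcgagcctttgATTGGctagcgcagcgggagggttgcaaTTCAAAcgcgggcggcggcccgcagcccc
Cdc20: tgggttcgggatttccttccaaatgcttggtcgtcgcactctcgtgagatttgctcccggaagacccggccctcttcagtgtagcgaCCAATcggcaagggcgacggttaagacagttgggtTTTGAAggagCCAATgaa
These lie at chr11:99024190-99024329 (minus strand), chr10:69352913-69353052 (minus), chr2:164769789-164769928 (plus) and chr4:118437344-118437483 (minus). Of the 24 stretches of 140 bases, 7 held TTTGAA, 19 held CCAAT and 3, that of *Nusap1* among them, held neither. Windows from 250 bases before to 50 after the start were at hand for 23 of the 28 genes, with 24 windows in all. TTTGAA, read on both strands, was in 12 of the 24 (50%) and in 17.9% of all 32851 windows, and CCAAT was in 21 (87.5%) and in 37.4%. The motifs were searched separately, so a base could count for both. A match describes the letters and is no evidence that a factor was bound.

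Of 20 genes of sterol synthesis and uptake, 6 were shifted to ONL and 0 to nerve (median 0.56), where 6.66% and 7.97% of all genes were. By label the count to ONL was 0. It lay between 4 and 8 as each library was left out, and was 9 with outer and inner ONL averaged. *Mvd*, for mevalonate diphosphate decarboxylase, was at 27.5, 39.1, 32.9, 36.1 and 32.9 CPM in E13.5 ONL, overlapping the 30 to 46.2 CPM of nerve, and at 71.2, 59.9, 58.0 and 77.1 CPM in outer ONL, above the 27.0 to 45.1 CPM of nerve (log2 interaction 1.14 ± 0.23, adjusted p = 0.00154, edgeR). Of 22 basement membrane genes 2 were shifted to ONL, *Lama4* and *Col4a6*, and 1 to nerve, against 6.66% and 7.97% of all genes. The count to ONL lay between 1 and 4 (without the library labelled E13.5_ON2) as each library was left out, and was 4 with the replicate block and 0 with outer and inner ONL averaged. *Col4a6* kept its call in 15 of 30 alternatives.

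Of 15 tested forebrain neuron markers 8 were shifted to nerve and 0 to ONL, with a median of -2.86, where 7.97% of all genes were shifted to nerve. Their summed level was 1180 to 1580 CPM in E13.5 ONL against 118 to 173 CPM in E13.5 nerve, 19.9 to 225 CPM in outer ONL and 121 to 232 CPM in E16.5 nerve. The E13.5 ONL libraries stood above all the others and the remaining groups overlapped. *Neurod6*, a transcription factor of forebrain projection neurons, was at 408, 211, 237, 246 and 255 CPM in E13.5 ONL and 0.258 to 2.13 CPM in nerve. In outer ONL it was at 0.0784, 10.5, 0.507 and 5.18 CPM and in E16.5 nerve at 1.89, 5.38, 0.663 and 3.5 CPM (log2 interaction -7.62 ± 0.96, adjusted p = 1.95e-05, edgeR). *Reln*, for the secreted protein reelin, was at 195 to 415 CPM in E13.5 ONL and 39.9 to 65.3 CPM in nerve, then at 5.49, 107, 35.4 and 60.2 CPM in outer ONL and 80.6, 181, 110 and 94.1 CPM in E16.5 nerve (-3.74 ± 0.60), and by label it was at -0.01 (adjusted p = 0.998, edgeR). Outer ONL replicates 2 and 4 held more neuronal transcripts than replicates 1 and 3. Without these 2 libraries 11 markers were shifted to nerve, without E16.5 nerve replicate 2 the count was 5, and by label it was 0 with a log2 interaction of 8.89 for *Neurod6*.

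**Figure D4:**
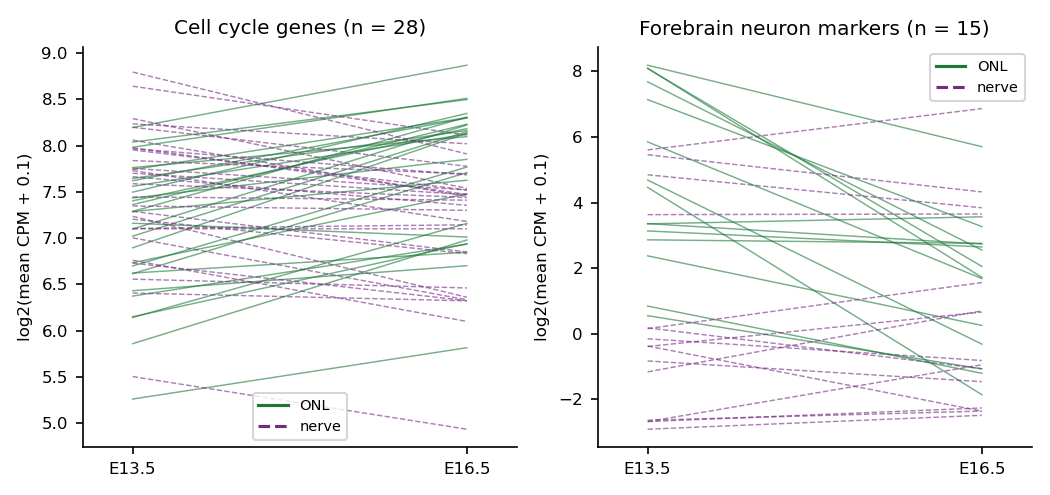
Log2 of mean CPM + 0.1 at E13.5 and E16.5 for each of 28 cell cycle genes (left) and 15 forebrain neuron markers (right), with ONL as solid green and nerve as dashed purple lines. Most green lines climb and most purple lines descend on the left, and 8 of the 15 markers on the right were called shifted to nerve.

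Other genes were named by size or by p alone, among called genes with a mean of at least 50 CPM in 1 of the groups. The 8 with the largest shift to nerve, apart from *Sfrp4* and *Neurod6*, were *Samd3*, the neurotensin gene *Nts*, the LIM homeobox gene *Lhx9*, the long noncoding RNA *Gm17750*, the neural transcription factor *Pou3f2* and the GABA receptor gene *Gabra2*. *Nts* was at 940, 665, 571, 608 and 712 CPM in E13.5 ONL, at 0.151 to 2.31 CPM in nerve, at 2.35, 83.2, 4.99 and 66.8 CPM in outer ONL and at 2.45, 37.0, 1.66 and 7.01 CPM in E16.5 nerve (log2 interaction -7.53 ± 1.22, adjusted p = 0.00026, edgeR). In all 6, every E13.5 ONL library lay above every nerve library, the E16.5 groups overlapped, and the log2 interaction lay between -8.22 (*Samd3*) and -6.36 (*Gabra2*). The medians of *Samd3*, *Gm17750* and *Pou3f2* in E13.5 nerve were 0 CPM, so that the sizes of these values rest on a few counts. By label all 6 reversed (0.30 for *Lhx9* to 10.14 for *Gm17750*), and *Gm17750* was then called (adjusted p = 0.0369, edgeR). *Calb2*, which encodes the neuronal calcium-binding protein calretinin, and *Mtus1*, for a microtubule-associated protein, had the smallest p of those shifted to nerve. *Calb2* was at 160, 204, 221, 206 and 241 CPM in E13.5 ONL and 12.7 to 37.4 CPM in nerve, and at 10.8, 26.9, 12.7 and 27.9 CPM in outer ONL and 63.1, 66.4, 44.8 and 94.6 CPM in E16.5 nerve (-4.93 ± 0.41, adjusted p = 4.59e-07, edgeR), and at -0.63 by label was not called (adjusted p = 0.724, edgeR). *Mtus1* (-2.77 ± 0.23, by label -0.92) turned its order in the same manner, and the glycolytic gene *Pfkp* (-2.87 ± 0.28) did not overlap at E13.5 only. At the later stage the study saw *Calb2* transcripts in the olfactory bulb and olfactory epithelium, not in ensheathing cells. It lists *Nts* and *Neurod6* among genes not expressed by ensheathing or Schwann cells. The part of neighbouring tissue in these values was not tested.

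Of 12 mature olfactory neuron markers 6 were shifted to ONL and 2 to nerve, with a median of 1.66, where 6.66% and 7.97% of all genes were. Their summed level stayed higher in nerve at both stages. It was 72.3 to 103 CPM in E13.5 ONL and 149 to 209 CPM in E13.5 nerve. At E16.5 it was 94.9 to 101 CPM in outer ONL and 225 to 379 CPM in nerve. Both markers with a group at the floor were called, and the median of the other 10 was 0.52. By label 0 were shifted to ONL and 3 to nerve, and *Omp* was at 0.22 (adjusted p = 0.926, edgeR). *Omp*, the olfactory marker protein gene, was at 0.0737 to 1.14 CPM in E13.5 ONL and at 6.01 to 14.4 CPM in nerve, then at 14.4, 14.9, 10.6 and 12.4 CPM in outer ONL and at 49.0, 45.7, 23.7 and 42.5 CPM in nerve. The nerve stayed above the ONL at both stages, with a narrower gap at E16.5 (log2 interaction 2.44 ± 0.56, adjusted p = 0.00462, edgeR). *Cngb1*, a subunit of the olfactory transduction channel, was at 15.7, 13.8, 7.24 and 9.18 CPM in outer ONL, above the 3.86 to 4.78 CPM of nerve, after overlap at E13.5 (3.12 ± 0.54). *Gnal* and *Ric8b*, for the olfactory G protein and its exchange factor, were shifted to nerve (-1.44 and -0.68). Of 10 markers of precursors and immature neurons 5 were shifted to nerve and 2 to ONL (median -1.44), and by label 7 and 0. *Lhx2* was at 27.0 to 119 CPM in E13.5 ONL and at 1.33, 7.18, 2.03 and 2.56 CPM in outer ONL, against 93.6 to 193 CPM and 41.0 to 111 CPM in nerve (-3.63 ± 0.57, adjusted p = 0.000189, edgeR). The proneural gene *Neurod1* followed *Lhx2* (-3.46 ± 0.60), while *Gng8* (1.56 ± 0.29) was shifted to ONL. By label *Gng8* was called the other way (-2.14, adjusted p = 0.0288, edgeR). *Tubb3*, the neuronal tubulin gene, chosen after its values were seen, was at 879 to 1620 CPM in E13.5 ONL, a median of 399 CPM in nerve, 11.6, 204, 24.1 and 98.0 CPM in outer ONL and 153 to 288 CPM in E16.5 nerve (-2.84 ± 0.67).

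**Figure D5:**
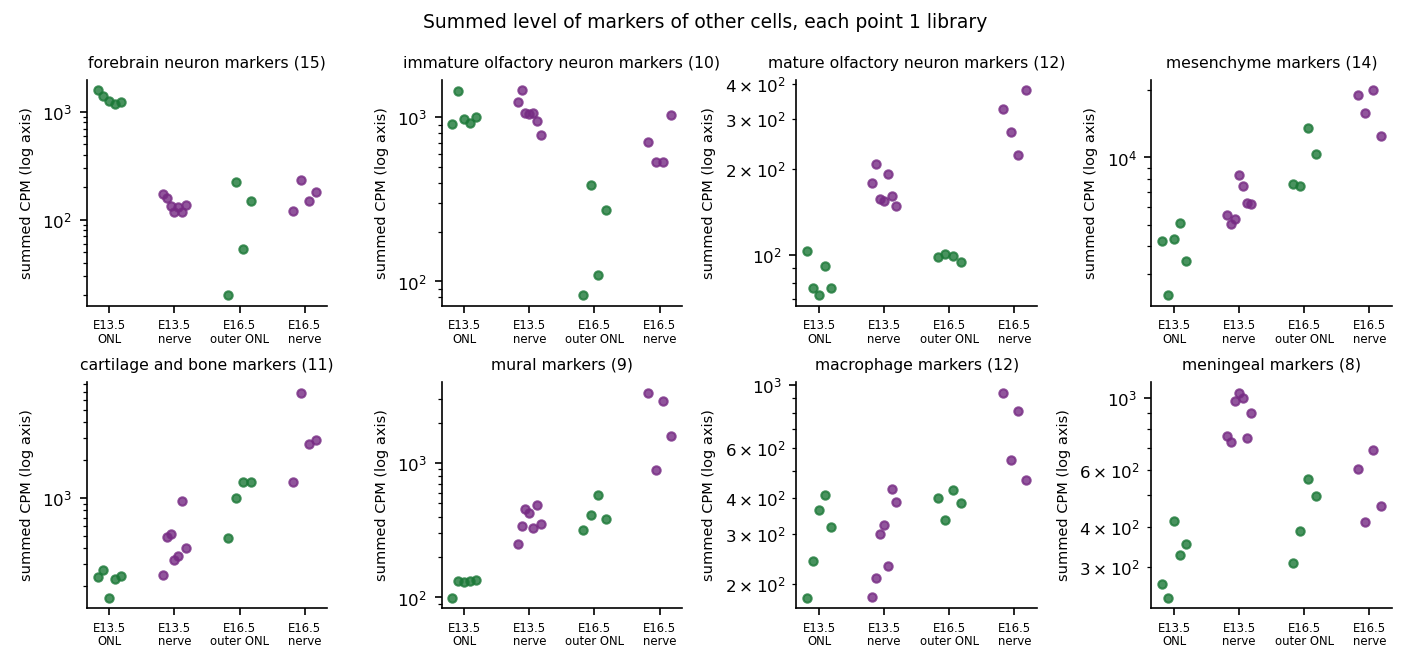
Summed CPM (log axis) of markers of 8 other cell types in each library of the 4 groups, with the number of markers in brackets. Forebrain neuron markers sum to 1180 to 1580 CPM in E13.5 ONL and to at most 232 CPM elsewhere, and cartilage and bone and mural markers are highest in E16.5 nerve.

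Of 14 mesenchyme markers 1 was called, *Lum*, for the proteoglycan lumican, shifted to nerve (-3.41 ± 0.63), and their sum was 2400 to 5100 CPM in E13.5 ONL, 5000 to 8310 CPM in E13.5 nerve, 7470 to 13500 CPM in outer ONL and 12500 to 20000 CPM in E16.5 nerve. Cartilage and bone markers had 2 of 11 shifted to ONL (*Alpl*, *Col9a2*) and 1 to nerve (*Col9a3*), and their sum was 162 to 269, 244 to 957, 482 to 1350 and 1350 to 6900 CPM in the same order of groups. Of 8 meningeal markers, *Aldh1a2*, for a retinoic acid-producing enzyme, was shifted to ONL (2.80 ± 0.46) and *Zic1*, a zinc finger factor also present in the forebrain, to nerve (-4.36 ± 0.79). *Aldh1a2* was at 11.2 to 60.5 CPM in E13.5 ONL, 640 to 963 CPM in nerve, 83.9, 136, 238 and 186 CPM in outer ONL and 313 to 656 CPM in E16.5 nerve. Of 13 endothelial markers only *Mfsd2a*, a lipid transporter of vessels with a blood-brain barrier, was called (1.87 ± 0.41, to ONL). Beside the counts of these lists, 6.66% of all genes were shifted to ONL and 7.97% to nerve.

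*Tagln*, for a smooth muscle protein, was the 1 mural marker of 9 called (-2.48 ± 0.69, adjusted p = 0.0171, edgeR), and it was not called with the replicate block at E16.5 (adjusted p = 0.054, edgeR). The mural sum reached 882 to 3350 CPM in E16.5 nerve against at most 580 CPM elsewhere. Of 12 macrophage markers *Mrc1* and *Ptprc* were shifted to nerve (-1.53 ± 0.44 and -2.0 ± 0.63), where 7.97% of all genes were. Without the library labelled E16.5_ON3, or without outer ONL replicates 2 and 4, the count of macrophage markers shifted to nerve was 0. It was 5 without the library labelled E11.5_ON1, 8 with outer and inner ONL averaged and 0 by label. None of 10 red cell markers was called, and their sum was 2790 to 12200 CPM over the 20 libraries. How far these cells account for the values of any gene above was not tested.

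The 8 genes with the largest shift to ONL by the same rule fell into 2 sets by their levels. *Zpld1*, *Oc90*, *Chodl*, *Slc15a2* and *Grik1* were higher in every outer ONL library than in every E16.5 nerve library. *Zpld1*, for a zona pellucida-like domain protein, was at 3.68 to 20.2 CPM in E13.5 ONL, 0.423 to 2.51 CPM in nerve, 301, 241, 226 and 295 CPM in outer ONL and 3.65, 2.59, 4.04 and 3.39 CPM in E16.5 nerve (log2 interaction 3.44 ± 0.54, adjusted p = 0.00018, edgeR). The peptide transporter gene *Slc15a2* was at 150, 89.5, 138 and 97.0 CPM in outer ONL and at 12.4 to 25.1 CPM in nerve, after overlap at 0.317 to 12 CPM (3.74 ± 0.62). *Grik1*, a kainate receptor subunit gene, had a log2 interaction of 3.69 ± 0.61 and *Oc90*, the otoconin gene, of 3.40 ± 0.61. *Chodl* (2.89 ± 0.90, adjusted p = 0.0323, edgeR) lost its call under 8 of 31 alternatives, with adjusted p of up to 0.0992.

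*Aox3*, *Osr2* and *Mgp* were instead higher in nerve at both stages and narrowed. The aldehyde oxidase gene *Aox3* was at 0, 0, 0, 0.529 and 0 CPM in E13.5 ONL, 8.94 to 30.9 CPM in nerve, 5.18, 20.8, 24.6 and 19.2 CPM in outer ONL and 27.1, 127, 32.3 and 49.3 CPM in E16.5 nerve. Its log2 interaction of 6.10 ± 1.03 rests on an E13.5 ONL group in which 1 library of 5 had any reads. *Osr2*, a transcription factor of mesenchyme, and *Mgp*, for matrix Gla protein, had values of 3.51 ± 0.50 and 3.2 ± 0.78. *Osr2* too is listed by the study among genes not expressed by ensheathing or Schwann cells. By label the values of *Aox3*, *Osr2* and *Mgp* were -0.12, -0.01 and -0.90. *Angptl4*, for a secreted regulator of lipid metabolism, had the smallest p among genes shifted to ONL by that rule, at 73.0, 76.6, 58.5, 77.2 and 75.3 CPM in E13.5 ONL, 71.5 to 157 CPM in nerve, 377, 226, 300 and 254 CPM in outer ONL and 90.7, 83.2, 76.1 and 56.6 CPM in nerve (2.62 ± 0.29, adjusted p = 7.42e-06, edgeR). It was called under all 31 alternatives, by label included (adjusted p = 0.00138, edgeR). *Igfbp5*, for an insulin-like growth factor binding protein, was at 67.5 to 158 CPM in E13.5 ONL against 504 to 1020 CPM in nerve and overlapped at E16.5 (2.72 ± 0.32, adjusted p = 1.07e-05, edgeR). By label its value was 0.47 (adjusted p = 0.689, edgeR).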

How the data were processed

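Laser-microdissected pieces were amplified with a SMART-seq v4 ultra low input kit, made into Nextera XT libraries and sequenced in pairs. The authors deposited raw counts per gene, and the submitters' processing notes name TopHat2 2.1.0, mm10, HTSeq, FastQC and DESeq2. The table holds 47729 genes and 1 row without a gene name, which was left out. Libraries of E13.5 were assigned by the published group averages, which match the mean of libraries carrying another label for 10 of 31 libraries. The members and gene lists were chosen with earlier results of these data known.

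From the counts, an interaction contrast was fitted with edgeR 4.0.16 in R 4.3.3 (TMM scaling, filterByExpr, quasi-likelihood test, no covariate, Benjamini-Hochberg adjustment over 18002 genes). Total counts per library ranged from 3512627 to 27398916. A group was taken to be at the floor where no library held more than 3 counts. The labels tie no library to an embryo. By the study's methods the E16.5 libraries of a group came from 4 embryos, but the E13.5 libraries outnumber their embryos, so there p-values measure the spread between pieces. Named genes were the 8 with the largest shift and the 4 with the smallest p in each direction, out of the called genes that had a symbol, averaged 50 CPM or more in 1 of the 4 groups and passed 3 counts in some library of every group. To these were added the study's located genes and the leading called members of each list. *Mki67*, *Mcm3* and *Tubb3*, and further called axon guidance genes, were chosen after their values were seen. Some genes that the rule names are not reported here. Positions are of GRCm38 (mm10), and promoters are RefSeq's for GRCm38.p6.

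Same-numbered E16.5 libraries of outer ONL and nerve deviated together from their group means (r = 0.248 to 0.513 in 4 pairs over 10245 genes, against -0.416 to 0.389 in the 12 other pairs), so a replicate block was tried. Other alternatives were grouping by label, DESeq2 1.42.0, other scalings and filters, all 31 libraries in the fit, outer and inner ONL averaged, and leaving out each library. The fit was tested on simulated data with 200 changed genes among 17498, of which 124 were recovered with 5 false calls.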

Additional observations from a re-analysis of the deposited data

Results flagged for a closer look

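In groups of 4 to 7 libraries, 29 cases had 1 library whose gap to the nearest other was above Dixon's 95% critical value, of 382 groups examined, where chance gives about 1 in 20, or 19. In E13.5 ONL, the library labelled E11.5_ON1 held 408 CPM of *Neurod6* against 211 to 255 CPM, 102 CPM of *Lhx9* against 47.8 to 61.8 CPM, 113 CPM of *Gabra2* against 37.7 to 56.7 CPM, 104 CPM of *Cntn1* against 26.2 to 40.3 CPM, 227 CPM of *Epha3* against 75.6 to 101 CPM and 106 CPM of *Plxna2* against 66.4 to 77.0 CPM in the others. In E13.5 ONL, the library labelled E11.5_ON2 held 130 CPM of *Adgrg1* against 62.2 to 70.1 CPM, 64.4 CPM of *Aldoc* against 6.56 to 14.6 CPM and 1.92 CPM of *Ntn1* against 0.586 to 0.852 CPM in the others. In E13.5 ONL, the library labelled E11.5_ON3 held 58.5 CPM of *Angptl4* against 73.0 to 77.2 CPM in the others. In E13.5 ONL, the library labelled E11.5_ON4 held 0.529 CPM of *Aox3* against 0 CPM in the others. In E13.5 nerve, the library labelled E13.5_ON2 held 12 CPM of *Slc15a2* against 3.93 to 7.37 CPM, 0.477 CPM of *Gabra2* against 0 to 0.169 CPM, 504 CPM of *Igfbp5* against 799 to 1020 CPM, 12 CPM of *Vtn* against 0 to 2.0 CPM and 212 CPM of *Lum* against 19.2 to 69.6 CPM in the others. In E13.5 nerve, the library labelled E13.5_ON4 held 46.8 CPM of *Glul* against 37.5 to 41.4 CPM in the others. In E13.5 nerve, the library labelled E13.5_ON6 held 14.4 CPM of *Omp* against 6.01 to 8.52 CPM in the others. In E13.5 nerve, the library labelled E13.5_ON7 held 0.358 CPM of *Samd3* against 0 to 0.0828 CPM, 0.501 CPM of *Pou3f2* against 0 to 0.0828 CPM and 159 CPM of *Col9a3* against 20.4 to 64.1 CPM in the others. In E13.5 nerve, the library labelled E13.5_ONL1 held 88.3 CPM of *Nell2* against 46.3 to 62.5 CPM in the others. In E16.5 nerve, the library labelled E16.5_ON2 held 37.0 CPM of *Nts* against 1.66 to 7.01 CPM, 2630 CPM of *Ptn* against 1300 to 1450 CPM and 9.49 CPM of *Ugt8a* against 5.10 to 5.73 CPM in the others. In E16.5 nerve, the library labelled E16.5_ON3 held 563 CPM of *Lama4* against 399 to 413 CPM in the others. In E16.5 nerve, the library labelled E16.5_ON4 held 3.56 CPM of *Ntn1* against 1.72 to 1.96 CPM in the others. In E16.5 outer ONL, the library labelled E16.5_oONL1 held 8870 CPM of *Ptn* against 5500 to 5900 CPM in the others. In E16.5 outer ONL, the library labelled E16.5_oONL4 held 2.37 CPM of *Lhx9* against 0.651 to 0.863 CPM in the others. The library labelled E11.5_ON1 was the shallowest of the 20, with 3512627 counts, and leaving it out ended no call among the named genes.

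The difference between the tissues changed with stage, by the edgeR test of the interaction itself, in 76 of the genes named. Shifts to ONL had log2 interactions of 6.10 for *Aox3*, 3.74 for *Slc15a2*, 3.69 for *Grik1*, 3.51 for *Osr2*, 3.44 for *Zpld1*, 3.44 for *Ntn1*, 3.40 for *Oc90*, 3.2 for *Mgp*, 3.12 for *Cngb1*, 2.89 for *Chodl*, 2.80 for *Aldh1a2*, 2.72 for *Igfbp5* and 2.62 for *Angptl4*. Next came 2.61 for *Aldoc*, 2.52 for *Ephb1*, 2.44 for *Omp*, 1.87 for *Mfsd2a*, 1.71 for *Alpl*, 1.68 for *Cryab*, 1.64 for *Ptn*, 1.63 for *Nkd2*, 1.56 for *Frzb*, 1.56 for *Gng8*, 1.52 for *Ephb3*, 1.5 for *Notch1* and 1.45 for *Nusap1*. Smaller ones were 1.45 for *Ugt8a*, 1.44 for *Col9a2*, 1.39 for *Sparcl1*, 1.34 for *Glul*, 1.27 for *Cdc20*, 1.20 for *Mcm3*, 1.18 for *Col4a6*, 1.14 for *Mvd*, 1.13 for *Sema6a*, 1.05 for *Notch2*, 1.00 for *Zbtb20*, 0.99 for *Hey1* and 0.94 for *Mki67*. The smallest were 0.93 for *Pmp22* and 0.92 for *Lama4*. Shifts to nerve had log2 interactions of -8.22 for *Samd3*, -7.62 for *Neurod6*, -7.53 for *Nts*, -7.12 for *Lhx9*, -6.76 for *Gm17750*, -6.59 for *Pou3f2*, -6.36 for *Gabra2*, -6.10 for *Sfrp4*, -5.36 for *Epha3*, -5.20 for *Dcc*, -5.05 for *Prss56*, -4.95 for *Wif1* and -4.93 for *Calb2*. These were followed by -4.36 for *Zic1*, -3.74 for *Reln*, -3.63 for *Lhx2*, -3.49 for *Dll1*, -3.46 for *Neurod1*, -3.41 for *Lum*, -3.15 for *Gfap*, -2.87 for *Pfkp*, -2.84 for *Tubb3*, -2.77 for *Mtus1*, -2.67 for *Slc1a2*, -2.55 for *Clu* and -2.48 for *Tagln*. Nearer to 0 lay -2.35 for *Col9a3*, -2.0 for *Ptprc*, -1.90 for *Npy*, -1.73 for *Plxna3*, -1.53 for *Mrc1*, -1.44 for *Gnal*, -1.42 for *Dpysl3*, -1.35 for *Plxna2* and -0.68 for *Ric8b*.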

How the results depend on the processing

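The count of called genes lay between 1892 and 3110 over the alternatives: 3110 with DESeq2, 2548 with total count scaling, 2597 with upper quartile scaling, 2249 without a filter, 2385 with all 31 libraries in the fit and 2353 with outer and inner ONL averaged. Leaving out each library in turn gave 2071 to 2700 called genes, with 791 to 1302 shifted to ONL and 1235 to 1632 to nerve. The count shifted to ONL was 788 among genes with a mean of at least 10 CPM and 734 at an absolute log2 interaction of at least 1. As alternatives chosen after seeing the data, 2628 genes were called without the 2 shallowest libraries and 2816 without outer ONL replicates 2 and 4.

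With libraries grouped by label, 1892 genes were called (884 shifted to ONL and 1008 to nerve), 653 of them among the 2634, and the log2 interaction reversed for *Aox3* -0.12, *Osr2* -0.01, *Mgp* -0.90, *Samd3* 3.26, *Neurod6* 8.89, *Nts* 8.14, *Lhx9* 0.30, *Gm17750* 10.14, *Pou3f2* 5.37, *Gabra2* 5.2, *Pfkp* 0.58, *Wif1* 8.15, *Prss56* 11.11, *Npy* 11.25, *Vtn* 4.65. It also reversed for *Ptgds* 6.77, *Hey2* 4.17, *Hes1* -0.94, *Sfrp5* -0.19, *Sema3b* 0.30, *Cryab* -0.61, *Slc1a2* 3.23, *Hey1* -1.62, *Ephb3* -0.43, *Plxna2* 0.47, *Gng8* -2.14, *Col9a2* -1.67, *Aldh1a2* -0.00 and *Zic1* 4.60. Among the called genes that reversed, *Gm17750*, *Wif1*, *Prss56*, *Npy*, *Hey1* and *Gng8* were called in the reversed direction by label (adjusted p under 0.05, edgeR). A further 31 of the 76 called genes kept their direction by label but were not called, with values of *Grik1* 4.08, *Sfrp4* -3.22, *Nkd2* 0.05, *Igfbp5* 0.47, *Calb2* -0.63, *Mtus1* -0.92, *Dpysl3* -0.43, *Gfap* -2.67, *Pmp22* 0.82, *Dll1* -0.95, *Ntn1* 0.96, *Epha3* -0.52, *Plxna3* -1.13, *Lama4* 0.71, *Col4a6* 1.97, *Cdc20* 0.51, and of *Mvd* 0.38, *Reln* -0.01, *Cngb1* 0.71, *Omp* 0.22, *Gnal* -0.93, *Ric8b* -0.30, *Neurod1* -2.37, *Lum* -2.43, *Alpl* 0.36, *Col9a3* -0.87, *Mrc1* -0.10, *Ptprc* -1.73, *Mki67* 0.87, *Mcm3* 0.55 and *Tubb3* -1.94. With the replicate block at E16.5, 2876 genes were called. Among the named genes the block ended the call of *Tagln* (adjusted p = 0.054, edgeR) and made that of *Adgrg1* (adjusted p = 0.0298 against 0.0579, edgeR), and changed no other call, while *Vtn* and *Ptgds* turned to 0.92 and 0.03. As each library was left out, *Vtn* ranged from -2.0 to 1.10 (above 0 without E16.5_ON2), *Ptgds* from -1.23 to 0.41 (above 0 without E16.5_ON2 or E13.5_ON1), *Sostdc1* from -1.1 to 0.19 (above 0 without E13.5_ON1) and *Prx* from -0.35 to 0.12 (above 0 without E13.5_ON1, E13.5_ON4 or E16.5_ON3). The cause of these changes was not tested. With 4 to 7 libraries a group, 31 of 100 simulated shifts of log2 1 and 93 of 100 of log2 2 were recovered among 17498 genes in a simulation of this comparison, so smaller shifts would often be missed.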
